A study of Rattus norvegicus with 4 samples.

Results

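Receptors for growth factors and for Notch ligands were examined in rat liver with an obstructed bile duct. The members were the probes of a cDNA array (spotted complementary DNA on glass) whose gene symbol in the platform's probe table was Fgfr3, Kdr, Notch3, Acvrl1, Met or Egfr, or began with Fgfr, Notch or Pdgfr. That rule found 11 of the 1936 probes, for 7 of the 958 named genes: Fgfr2, Fgfr3, Egfr, Pdgfra, Kdr, Acvrl1 and Notch3. No probe carried the symbol Met. Fgfr2, Egfr, Pdgfra and Acvrl1 had 2 probes each, and Fgfr3, Kdr and Notch3 had 1.

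Male Sprague-Dawley rats of 250 to 300 g had the common bile duct tied (ligation) or only exposed (sham operation), and the right lateral liver lobe was taken 12 h later. The labels give no genotype, allele or drug beyond this, and every rat had surgery under ether. RNA of 3 rats per group was mixed, so each group is a pool and the spread between animals was not measured. Each of 4 arrays compared the pools in 2 colours, with the ligated pool in Cy5 on arrays 1 and 3 and in Cy3 on arrays 2 and 4. The labels do not say whether the arrays share the same pair of pools, so any p-value here measures the spread between arrays, which may be technical.

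Receptor tyrosine kinases such as the FGF receptors, EGFR, PDGFRA and KDR bind a secreted growth factor, pair up and phosphorylate each other, which starts signalling through the RAS-MAP kinase and PI3 kinase routes. Acvrl1 (ALK1) is a serine/threonine kinase receptor of the TGF-beta family found mainly on endothelium, where it answers circulating BMPs. Notch receptors are cut on contact with a ligand on a neighbouring cell, and the freed part acts in the nucleus with RBPJ. In liver these receptors lie on different cells: EGFR is abundant on hepatocytes, KDR (VEGFR2) on sinusoidal endothelium, PDGFRA on mesenchymal cells, and NOTCH3 on vascular smooth muscle and other mesenchymal cells.

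The values are log2 ratios of ligation over sham, with each array's median set to 0, so that a negative value means less signal from the ligated than from the sham pool, relative to the middle probe. Direction and base of the logarithm are not stated with the data. The labels list the ligated pool as channel 2 throughout, which makes ligation over sham the likely direction, and base 2 was assumed. Ratios hold no level, so neither the abundance of a receptor nor the identity of the tissue could be checked. In whole liver, fewer cells of a type and less RNA per cell cannot be told apart. The members were proposed from results of this same contrast, so their ligation differences are given as a description, without p-values; how many passed the fit over all genes is printed beside the share of all genes, and supports nothing.

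Notch3 and Fgfr3 had the lowest values of the 7, and the 250 bases before their start sites are shown because these receptors were lower together. The windows come from RefSeq (GRCr8), where 6 of the 7 genes were matched and Acvrl1 was not. Capitals mark GC boxes, the hexamer GGGCGG on either strand that the Sp1 family binds. The windows, each written 5′ to 3′ on the gene's own minus strand, are chr7:11834586-11834835 for Notch3 and chr14:81227210-81227459 for Fgfr3.
Notch3: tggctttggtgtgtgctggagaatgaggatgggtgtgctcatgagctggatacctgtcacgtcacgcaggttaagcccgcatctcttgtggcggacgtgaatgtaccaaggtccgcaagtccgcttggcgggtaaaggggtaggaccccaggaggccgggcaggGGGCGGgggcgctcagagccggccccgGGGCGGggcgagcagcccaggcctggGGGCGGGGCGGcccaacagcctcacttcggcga
Fgfr3: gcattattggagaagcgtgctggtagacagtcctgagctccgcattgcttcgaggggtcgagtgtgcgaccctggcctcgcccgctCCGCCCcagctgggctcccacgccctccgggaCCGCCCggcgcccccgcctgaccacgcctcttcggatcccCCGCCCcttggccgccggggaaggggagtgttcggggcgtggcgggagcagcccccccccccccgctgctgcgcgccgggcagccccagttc

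Notch3 had 4 GC boxes, at 86, 59, 33 and 28 bases before the start, and the last pair overlap by 1 base. Fgfr3 had 3, at 164, 132 and 92 bases. Fgfr2 had 2, Egfr and Kdr 1 each and Pdgfra 0, while 30.5% of 33469 rat windows of this length held at least 1 and 3.67% at least 4. The 2 printed windows were chosen by the receptors' values, and no link between GC boxes and those values was tested. The Notch3 and Fgfr3 windows were 67.6% and 74.4% G or C, against a median of 51.2%. Those of Fgfr2, Egfr, Kdr and Pdgfra were at 76.8%, 63.6%, 61.6% and 47.2%, so a high share was not particular to Notch3 and Fgfr3. The RBPJ core TGGGAA was found in the window of Kdr alone among the 6 (22.1% of all windows hold it, on either strand), and TATAAA in none (12.9% of all windows). CCAAT, on either strand, was found in Fgfr2, Fgfr3, Kdr and Pdgfra (34% of all windows). Matches of different motifs did not overlap. A match in letters is not a bound site, and no measure of binding was used.

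Notch3 was the lowest of the receptors. Its values were -0.49 and -0.81 on arrays 1 and 3, where ligation was in Cy5, and -2.06 and -1.96 on arrays 2 and 4, where it was in Cy3. It was below the array median on every array, but the orientations did not overlap and differed by 1.36. The mean was -1.33 (SD 0.80, n = 4 arrays; SE 0.08 with the dye as a term of the fit), a 2.51-fold lower ratio, and 7th lowest of 958 genes.

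Fgfr3, a receptor for FGFs, followed. It was at -0.20 and -0.54 with ligation in Cy5 and at -1.27 and -1.57 with ligation in Cy3. All 4 arrays were again below the median, and the Cy3 arrays were lower without overlap. The mean was -0.90 (SD 0.63, n = 4 arrays; SE 0.08), 1.86-fold lower and 15th lowest of the 958. Notch3 and Fgfr3 were the members with the same sign on all 4 arrays, and both passed 1.5-fold in that direction, as did 27 of the 958 genes (2.82%). At any size, 7.1% of the genes were below the median on all 4 arrays and 5.53% above it, the latter with none of the 7 receptors.

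**Figure D1:**
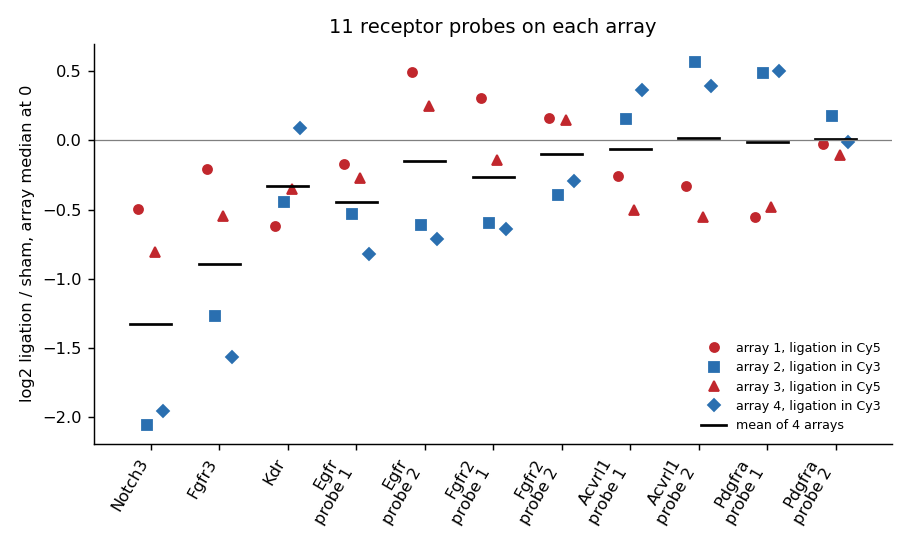
Log2 ratio of ligation over sham (array median at 0) for each of the 11 receptor probes; points are single arrays, red with ligation in Cy5 and blue with ligation in Cy3, and bars are means of 4 arrays. Notch3 and Fgfr3 lie below 0 on every array, whereas both Acvrl1 probes and Pdgfra probe 1 lie below 0 in red and above 0 in blue.

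Kdr, the main VEGF receptor of endothelium, was at -0.62 and -0.35 on arrays 1 and 3 and at -0.45 and 0.09 on arrays 2 and 4. Here 3 of 4 arrays were below the median and the orientations overlapped, which held for no other member. The mean was -0.33 (SD 0.30, n = 4 arrays; SE 0.09), 1.26-fold lower. Leaving out array 2 gave -0.20 and leaving out array 4 gave -0.47.

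Egfr, the receptor for EGF, TGF-alpha and related ligands, was at 0.16 and -0.01 (-0.0115) on arrays 1 and 3 and at -0.57 and -0.77 on arrays 2 and 4. The Cy3 arrays were the lower ones, and the Cy5 arrays lay closer to the median. The mean was -0.30 (SD 0.44, n = 4 arrays; SE 0.08). Its 2 probes come from different cDNA clones and averaged -0.45 and -0.15. The lower probe was below 0 on each array, from -0.82 to -0.17, while the other ran from -0.72 to 0.50 and changed sign with the dye. Their gap of 0.30 was wider than that of 76.4% of 678 probe pairs of a gene from different clones, which had a median gap of 0.13.

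Fgfr2, the other FGF receptor on the array, was at 0.23 and 0.0046 on arrays 1 and 3 and at -0.50 and -0.47 on arrays 2 and 4. Its sign thus followed the dye, and the mean was -0.18 (SD 0.36, n = 4 arrays; SE 0.07). Both probes are of the same clone and averaged -0.27 and -0.10. That gap of 0.17 exceeded 76.2% of the 21 pairs of probes of 1 clone, whose median gap was 0.08 (0.0834). On each array Fgfr3 was below Fgfr2, by the values above, but they are ratios of different probes and say nothing of relative levels.

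Acvrl1 and Pdgfra had means close to 0, with arrays of opposite sign. Acvrl1 was at -0.29 and -0.53 with ligation in Cy5 and at 0.36 and 0.38 with ligation in Cy3. The mean was -0.02 (-0.0213; SD 0.46, n = 4 arrays; SE 0.07). Its 2 probes of 1 clone averaged -0.06 and 0.02 (0.0167), so the near-zero mean came from each probe. Although Acvrl1 was named in the rule beside Notch3 and Fgfr3, it was 454th from the lowest of 958 genes.

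Pdgfra, a PDGF receptor, was at -0.29 and -0.29 on arrays 1 and 3 and at 0.33 and 0.25 on arrays 2 and 4, with a mean of -0.0012 (SD 0.34, n = 4 arrays; SE 0.07). The probe means of -0.01 (-0.0108) and 0.0084 agreed although the clones differed. Their arrays did not: 1 probe ran from -0.55 to 0.50 and the other from -0.11 to 0.18. The values of these probes thus differed unequally between the dye orientations, and averaging over the swapped arrays removed most of that gap. The cause was not tested.

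The dye term (the part of a value that changes sign when the dyes are swapped) was tested, since the rule did not use it. By limma it passed Benjamini-Hochberg adjusted p under 0.05 for 6 of 7 members, all but Kdr (-0.15, adjusted p = 0.15), against 78% of the 958 genes. The largest among the members were Notch3 at 0.68 (limma adjusted p = 8.25e-06) and Fgfr3 at 0.52 (limma adjusted p = 9.49e-05). Acvrl1 was at -0.39, Egfr at 0.37, Fgfr2 at 0.30 and Pdgfra at -0.29. This order rests on the centring. Without centring 5 members passed. The share of all genes under that setting is not given here, so nothing is read from that count. The largest dye terms without centring were those of Acvrl1 (-1.12) and Pdgfra (-1.01). Those of Notch3 (-0.046) and Fgfr3 (-0.20) were then the smallest. Over all 958 genes the median size of the dye term was 0.40, against 0.10 for the ligation difference. Dye terms of this share and size were thus common on these arrays.

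**Figure D2:**
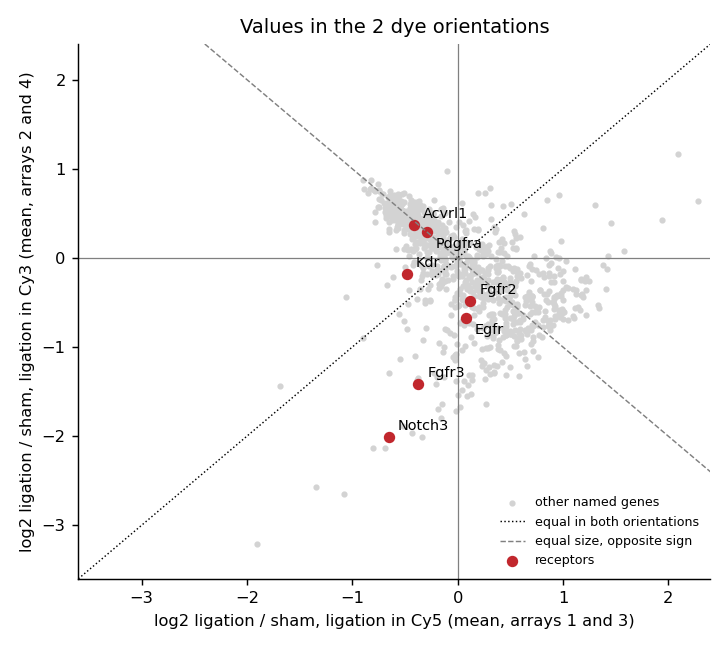
Mean log2 ratio of ligation over sham with ligation in Cy5 (arrays 1 and 3, horizontal) against ligation in Cy3 (arrays 2 and 4, vertical) for 958 named genes in grey and the 7 receptors in red. Acvrl1 and Pdgfra lie near the dashed line of equal size and opposite sign, and Notch3 (-0.65, -2.01) and Fgfr3 (-0.37, -1.42) lie at the lower left.

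The deposited values before centring showed another pattern in Notch3. They were -1.75, -1.63, -1.77 and -1.70 on arrays 1 to 4, an SD of 0.06, although the medians of all probes were -1.26, 0.43, -0.96 and 0.26. The uncentred value of Notch3 thus hardly depended on which pool carried Cy5, and the 1.36 gap between orientations appeared with the centring. Over all 958 genes the median uncentred SD was 0.75, and that of Notch3 was the 28th smallest. Fgfr3 before centring was at -1.46, -0.84, -1.50 and -1.31 (SD 0.30). By contrast, Acvrl1 was at -1.55, 0.78, -1.49 and 0.64, close to the swing of the array medians.

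**Figure D3:**
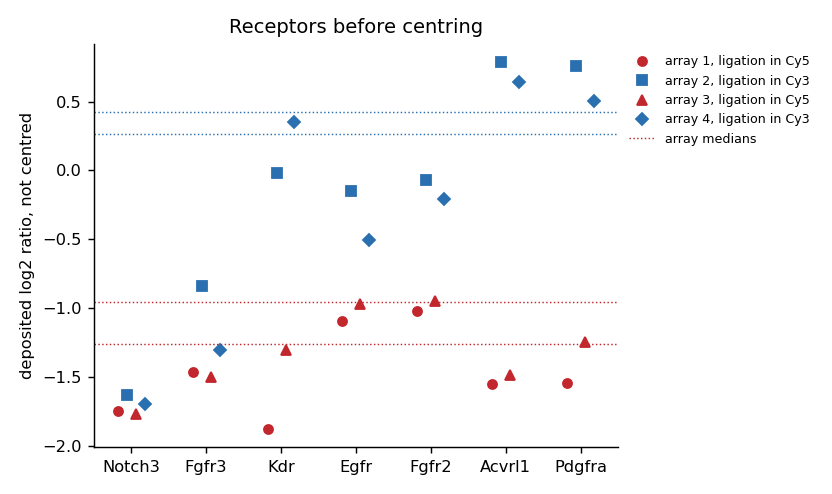
Deposited log2 ratios of the 7 receptors without centring, as 1 point per array (red, ligation in Cy5; blue, ligation in Cy3), with dotted lines at the array medians. The 4 points of Notch3 lie between -1.77 and -1.63, while those of Acvrl1 and Pdgfra separate by dye as the array medians do.

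Read as Cy5 over Cy3 on every array, the values give other ligation differences for the receptors. By construction these equal the dye terms above and are no separate result. Notch3 would then be at 0.68, Fgfr3 at 0.52, Egfr at 0.37 and Fgfr2 at 0.30. Kdr would be at -0.15, Pdgfra at -0.29 and Acvrl1 at -0.39. Notch3, Fgfr3, Egfr and Fgfr2 thus changed sign, and Kdr was negative under both readings. As ligation over sham, Acvrl1 (-0.0213) and Pdgfra (-0.0012) were within their SE (0.07) of 0. Acvrl1 was at 0.04 without array 3 and Pdgfra at 0.02 without array 4, so neither had a sign to keep. With that reading and no centring, added after seeing the data, Notch3 was at -0.05 (-0.046) and Fgfr3 at -0.20. The lower value of Notch3 therefore depends on the reading of the ratio.

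In the fit over all features, 4 of 7 members passed limma's adjusted p under 0.05, all lower (Notch3, Fgfr3, Kdr and Egfr), and 3 did not. Of the 958 genes 27.1% passed, 15.4% in the lower direction and 11.7% in the higher. Since the members were proposed from this contrast, nothing is read from that count or from those that follow under other settings. The median of the 7 was -0.30, against -0.01 (-0.013) for all 958. Without centring every gene moved by about -0.38, and 7 of 7 members passed as lower, against 791 of 958 genes. As Cy5 over Cy3, where the ligation difference equals the dye term, 4 members passed as higher and 2 as lower. Of the 958 genes 45.2% and 32.8% did so (78% in all). Kdr no longer passed when array 1 or array 2 was left out, and Egfr no longer passed when array 3 or array 4 was. Fgfr2 passed when array 1 was left out.

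**Figure D4:**
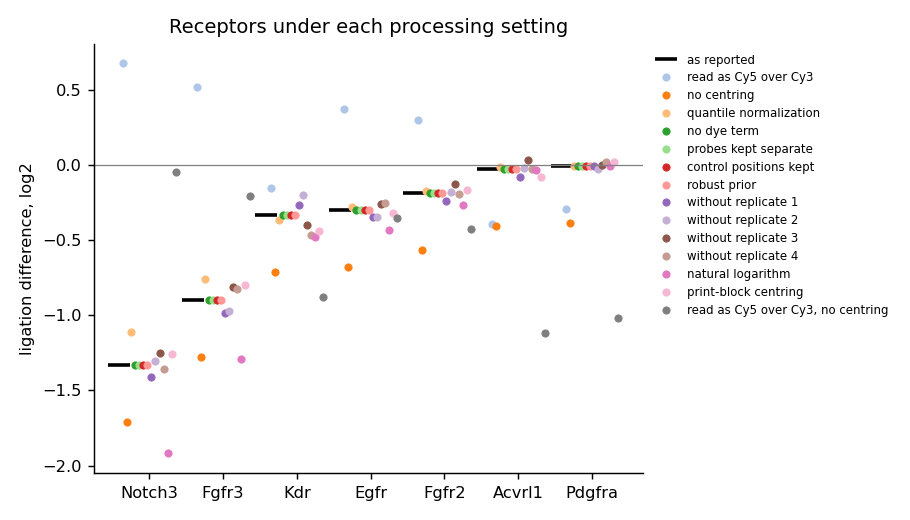
Ligation difference (log2) of each receptor as reported (black bar) and under each other processing setting (coloured points). Notch3 and Fgfr3 stay below -0.7 except when the table is read as Cy5 over Cy3, where they are 0.68 and 0.52 with centring and -0.05 and -0.20 without.

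Genes of the pathways around these receptors were then taken from 8 lists, and 36 of 216 listed genes were measured. The lists were chosen with earlier results of these data known, so the p-values of their genes describe the fit and are no independent support. Each SE given for them is that of the limma fit with its dye term and moderated variance, not the plain spread of the 4 arrays. The lists also hold other receptor kinases (Ddr1, Epha5, Ryk, Tyro3, Tek and Tie1) and Mst1, a ligand of another kinase. Thus not all of the 36 are ligands, partners or signalling proteins of these receptors. By limma, 3 were higher and 1 lower at adjusted p under 0.05 and 32 did not pass. That is 11.1% called, against 27.1% of all 958 genes, and the median of the 36 was -0.0022. None of the FGF ligands, cofactors and feedback genes listed was named on the array, so Fgfr2 and Fgfr3 have no measured ligand here. Without centring 0 were higher and 31 lower, and read as Cy5 over Cy3 14 were higher and 12 lower. The count of lower genes was 3 without array 1 and 2 without array 4.

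Pdgfa, a ligand of PDGFRA, was higher. It was at 0.13, 0.82, 0.48 and 0.75 on arrays 1 to 4, above the median on each, with a mean of 0.55 ± 0.08 (SE, n = 4 arrays; limma adjusted p = 0.000191). Its receptor Pdgfra was at -0.0012, and the difference between the genes was not tested. Pdgfa was at 0.16 without centring (limma adjusted p = 0.19) and at -0.24 read as Cy5 over Cy3.

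Of the VEGF and angiopoietin genes, 0 of 5 passed the limma test, and 1 had an unadjusted p under 0.05. The KDR ligands Vegfa and Vegfc were at -0.06 ± 0.15 and -0.18 ± 0.09 (SE of the fit with its dye term). Their SDs over the 4 arrays were 0.92 and 0.23. Vegfa varied widely, from -1.31 on array 2 to 0.83 on array 1, whereas Vegfc was below the median on all 4 arrays, from -0.52 to -0.02 (-0.0215). Pgf, a ligand of the related receptor FLT1, was at -0.02 (-0.0208). The endothelial receptor kinases Tek and Tie1 were at -0.04 (-0.0356) and -0.16.

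Of 4 Notch pathway genes, 0 passed the limma test and 0 had an unadjusted p under 0.05. The ligands Dll1 and Jag2 were at -0.14 ± 0.08 and -0.02 (-0.019) ± 0.07 (SE). Dlk1, a noncanonical ligand, was at -0.01 (-0.011). Hes1, a transcriptional target of Notch signalling, was at 0.07 ± 0.07 (SE), with -0.46 and -0.38 on arrays 1 and 3 and 0.66 and 0.47 on arrays 2 and 4. Its sign followed the dye, and its mean was close to 0 while that of Notch3 was -1.33.

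Of 7 genes of the TGF-beta and BMP axis, to which Acvrl1 belongs, 1 was higher. Bmp6, a ligand made in liver mainly by endothelium, was at 0.25 ± 0.07 (SE, n = 4 arrays; limma adjusted p = 0.023). Its 4 probes averaged -0.03 (-0.0305), 0.04 (0.044), 0.48 and 0.50, so that only the upper pair carried the difference, and the call was lost without array 1, 2 or 4 and without centring (-0.13). The receptor Bmpr1a was at 0.08 (0.0786), the transducer Smad2 at 0.21 (limma adjusted p = 0.0506), and the BMP targets Id1 and Id3 at 0.11 and -0.05 (-0.0506). The ligand Tgfb3 was at 0.02 (0.0224), and Ltbp1, which binds latent TGF-beta, at -0.07 (-0.074).

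Of 3 genes of the HGF and EGF axis, Mst1, which encodes the hepatocyte-derived ligand of the kinase MST1R and resembles HGF, was lower at -0.38 ± 0.08 (SE, n = 4 arrays; limma adjusted p = 0.00302). It was at 0.59 and 0.25 on arrays 1 and 3 and at -1.24 and -1.11 on arrays 2 and 4, so its sign followed the dye, and its 2 probes averaged -0.39 and -0.37. Read as Cy5 over Cy3 it would be at 0.79. The EGFR ligands Egf and Hbegf were at -0.18 (limma adjusted p = 0.0997) and 0.02 (0.0214). Neither passed, and Egfr itself was at -0.30.

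Other receptor tyrosine kinases served as the nearest comparison. Of 4 measured in that list, 0 passed the limma test and 0 had an unadjusted p under 0.05. They were the collagen receptor Ddr1 at -0.09 (-0.0926), Epha5 at -0.03 (-0.0256), Tyro3 at 0.0065 and Ryk at 0.08 (0.0753). The receptor kinases Tek and Tie1 were counted with the VEGF and angiopoietin genes instead. Tie1, at -0.16, was below the median on all 4 arrays (limma unadjusted p = 0.0487, adjusted p = 0.131), and Tek was at -0.04. Of 12 signalling proteins downstream of such receptors, 1 was higher, the kinase Src at 0.35 ± 0.08 (SE, n = 4 arrays; limma adjusted p = 0.0047). Src was above the median on each array, from 0.20 to 0.53, but at -0.04 (-0.0365) without centring and at 0.02 (0.023, limma adjusted p = 0.792) read as Cy5 over Cy3. With each print block centred on its own median, added after seeing the data, it did not pass (0.24, limma adjusted p = 0.0772). The other 11, among them the adaptor Grb2 (-0.07), the kinases Akt1 (0.03) and Map2k1 (0.14), and the MAP kinase phosphatases Dusp1 (-0.16) and Dusp6 (0.02), did not pass.

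**Figure D5:**
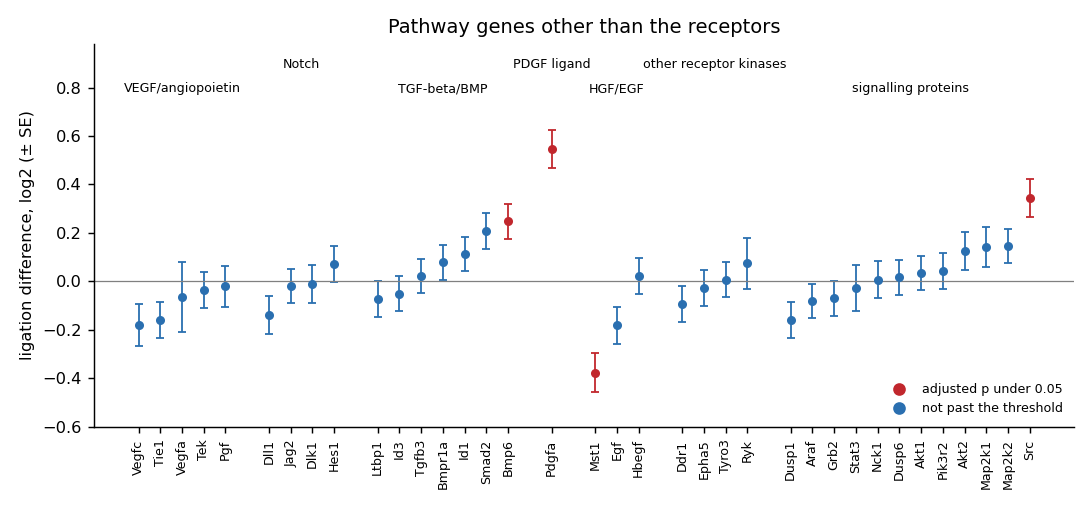
Points are ligation differences (log2) of the 36 measured list genes that are not among the 7 receptors, grouped by list. Bars are ± SE of the limma fit with its dye term. Genes past limma's adjusted p of 0.05 are in red. Pdgfa, Src and Bmp6 are higher and Mst1 is lower; 32 did not pass.

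Markers of the cell types that carry these receptors were counted beside them. By the same limma threshold, 11.7% of all 958 genes were higher and 15.4% lower. Of 17 endothelial markers listed only 4 were measured, among them Tek and Tie1, already given with the pathway genes. Of the 4, 1 was lower by limma (Ece1, an endothelin-converting enzyme, at -1.18) and 3 did not pass, with Cdh5 at 0.09 (0.0926). The median of the 4 was -0.10 (-0.0975). Of 4 stellate and mesenchymal markers measured (17 listed), Timp1 was higher at 0.35 and Col1a1 lower at -0.23, and the median was -0.06 (-0.0585). Cholangiocyte markers (10 listed, 0 of 3 measured called by limma, 0 at an unadjusted p under 0.05) had a median of 0.02 (0.0161). The leukocyte marker Cd53, the only 1 measured of 12 listed, was lower at -0.27. Of 9 hepatocyte markers listed only 4 were measured, and these 4 were higher, from 0.20 (Serpina1) to 0.38 (Apoa1). Without centring those 4 lay from -0.18 to -0.0039 and Timp1 at -0.03 (-0.0344), so their direction rests on the zero point. Apoa1, Tf and Ttr were each above the median on arrays 1 and 3 and below it on arrays 2 and 4. Read as Cy5 over Cy3, Ece1 would be at 0.84, Cd53 at 0.27, Timp1 at -0.00049 and Col1a1 at -0.06. Of the hepatocyte markers, Serpina1 would be at -0.19, while Apoa1, Ttr and Tf would be at 0.80, 0.69 and 0.63. The part of cell composition in the receptors' values was not tested.

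The genes whose 4 centred values lay closest to a receptor's (Euclidean distance over the arrays, among 958 genes) were, for Notch3, the mitochondrial protein Tspo (0.21) and the organic anion transporter Slc22a8 (0.32), against a median distance of 3.08. For Fgfr3 they were Cyp4f4 (0.21) and the vasopressin receptor Avpr1a (0.21, median 2.22). For Acvrl1 they were the cadherin Cdh11 (0.07, 0.0696) and the anchoring protein Akap11 (0.08, 0.0799; median 1.11). Kdr had no such close neighbour, with Cdc37 at 0.44 and Nme4 at 0.48 (median 1.22). These distances include the dye pattern, which most genes show.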

How the data were processed

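Per the labels, poly(A) RNA of mixed total RNA was labelled with cyanine dyes and hybridised to a slide said to hold 1800 rat genes. The deposited values are the authors' log2 ratios, 1 per probe and array (the base is assumed). How they were scanned, background-corrected and normalized is not stated in the labels used here. No intensity was used, so signal over background is unknown and the number of arrays limits precision.

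Probe symbols came from the platform's annotation table (1432 probes with 1 symbol, 19 with several, 485 unnamed), and all 7 members matched RefSeq (GRCr8) by gene number. The 288 spots at the 18 positions unnamed in each of 16 print blocks were taken as controls and left out. Each array was centred on its median, and probes of 1 symbol were averaged, giving 1174 features (958 genes). limma 3.58.1 in R 4.3.3 fitted a ligation and a dye term with moderated variances and Benjamini-Hochberg adjustment over all features; the fit was tested on simulated data. Arrays of like orientation correlated at r = 0.93 and 0.94 across probes, and those of opposite orientation at -0.45 to -0.28, as a description. Promoter windows were searched with Python 3.11.15.

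Members and lists were chosen with earlier results of these data known. Named were all members, list genes past adjusted p 0.05, measured ligands, and each of 4 members' 2 nearest genes; other list genes and markers were named after their values were seen. Alternatives were the Cy5 over Cy3 reading, no centring, quantile normalization, no dye term, separate probes, control positions kept, a robust prior, natural logarithms and leaving out each array. Print-block centring, and the Cy5 over Cy3 reading without centring, were added after seeing the data.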

Additional observations from a re-analysis of the deposited data

How the results depend on the processing

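The receptors were proposed from this contrast, so their counts support nothing and are given for the record: 4 of 7 were past limma's adjusted p of 0.05 (27.1% of all 958 genes), 7 without centring, 0 without the dye term (2 at an unadjusted p under 0.05), and 3 to 4 on leaving out 1 array. Of the 36 pathway genes, 4 were called, 26 as Cy5 over Cy3, 31 without centring, 30 with both of these, and 0 without the dye term (1 at an unadjusted p under 0.05; 0 of all 958 genes were called and 52 had an unadjusted p under 0.05). Leaving out 1 array gave 3 to 6 pathway genes. The dye term was called for 6 receptors (78% of all 958 genes), for 5 without centring, and for 6 to 7 on leaving out 1 array. For the last 2 settings the share of all genes is not given, so nothing is read from those counts. As Cy5 over Cy3, Notch3 (0.68), Fgfr3 (0.52), Egfr (0.37), Fgfr2 (0.30), Mst1 (0.79) and Pdgfa (-0.24) changed sign, and Src was at 0.02 (0.023, limma adjusted p = 0.792). Without centring Bmp6 (-0.13) and Src (-0.0365) did, and with both choices Bmp6 (-0.50), Mst1 (0.07, 0.0692), Pdgfa (-0.96) and Src (-0.70) did. Natural logarithms would put Notch3 at -1.92 and Fgfr3 at -1.29. Quantile normalization gave -1.11 and -0.76, and print-block centring -1.26 and -0.80; Src then lost its call (0.24, limma adjusted p = 0.0772). No paired analysis was possible because each array is itself a ratio of both pools and the arrays form 1 group. In 22 sets of 4 array values (receptors, their probes and called pathway genes), Dixon's test found 0 with a single array apart. Many of these sets split by dye, which leaves the test little room to flag 1 array, so nothing is read from it. A receptor with 1 probe was also counted both as gene and as probe. The cause of these changes was not tested.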
